A study of Mus musculus with 18 samples.

Results

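This account covers 1 contrast in cultured mouse microglia, the addition of a Tak1ΔM/+ allele to cells that already lacked 1 copy of Tbk1. The 3 libraries labelled Tbk1+/-;Tak1ΔM/+ were set against the 3 labelled Tbk1+/-, 6 of the 18 libraries of the series, across all 13447 genes expressed. The members were chosen by genotype alone. The series asks how the kinases TBK1, TAK1 and RIPK1 control inflammation and cell death, and holds 6 genotypes with 3 libraries each. All were bulk RNA-seq of primary microglia shaken off mixed glial cultures made from the forebrains of C57BL/6 pups at postnatal day 2, after 14 days in flasks with a change of medium at day 7. Both groups compared carry Tbk1+/- and wild-type Ripk1. They differ by label in Tak1 only, which is Tak1ΔM/+ in one and wild type in the other. The labels do not say what is deleted in the ΔM allele, in which cells, or by which driver. They do not say whether replicates were separate pups or cultures, so p-values measure the spread between these libraries, which may be technical.

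TBK1 is a kinase that, with its relative IKK-epsilon, phosphorylates IRF3 downstream of nucleic acid sensors and so switches on type I interferon genes, and that also phosphorylates autophagy receptors and RIPK1. TAK1, the product of Map3k7, is the kinase that links TNF and Toll-like receptors to the IKK complex and to the MAP kinases JNK and p38, and that also restrains RIPK1. Interferons act through the receptor IFNAR and the transcription factor complex ISGF3, which binds the interferon-stimulated response element (ISRE) in the promoters of genes with antiviral roles. Microglia, the macrophages of the brain, divide readily in neonatal culture.

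The 6 libraries held between 8016559 (double heterozygote replicate 2) and 21604322 counts. Across genes, log2 CPM (CPM is the count scaled to the size of the library) correlated at 0.960 to 0.964 among the 3 Tbk1+/-;Tak1ΔM/+ libraries and at 0.933 to 0.950 among the 3 Tbk1+/- libraries. Tbk1+/- replicate 2 was the closest of its group to the double heterozygotes: it correlated at 0.933 to 0.937 with them, against 0.909 to 0.916 for replicates 1 and 3. For some genes replicates 1 and 3 were the ones apart from the rest of the series. Fcrls read 810 and 948 CPM in them and at most 363 elsewhere, and Lyve1 98.2 and 156 against at most 8.78. The share of mitochondrially encoded counts moved with genotype. Mitochondrially encoded genes took 2.20%, 1.82% and 2.00% of the counts in Tbk1+/- and 0.512%, 0.508% and 0.367% in Tbk1+/-;Tak1ΔM/+, a difference of -1.54 percentage points (2.01% ± 0.191 against 0.463% ± 0.0824, SD, n = 3 each; two-sided exact permutation test, p = 0.1, the smallest that 3 against 3 allows). Across the series, 8 libraries were under 1%, and 5 of them carry labels of other genotypes (1 WT, 1 Tak1ΔM/+, 2 Tbk1+/-;Ripk1D138N/D138N, 1 Tbk1+/-;Tak1ΔM/+;Ripk1D138N/+). Within this contrast a low share and the Tak1 allele cannot be told apart, so levels in those 5 libraries, called the other low-share libraries below, are given beside the results. These 5 differ from both groups of the contrast in more than the share. Tbk1 read 123 to 149 CPM in all of them, which is the WT level and goes against the Tbk1+/- label of the 3 that carry a Ripk1 allele. Y-linked genes summed to 0 to 3.02 CPM in them, against 59.8 to 187 in the 6 libraries compared. Fold changes also followed GC content: in 10 equal groups from the genes poorest to those richest in GC, the median log2 fold change ran from -0.46 to 0.28, and over the WT and Tak1ΔM/+ libraries, none of which enter this contrast, it ran from -0.29 to 0.13.

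**Figure D1:**
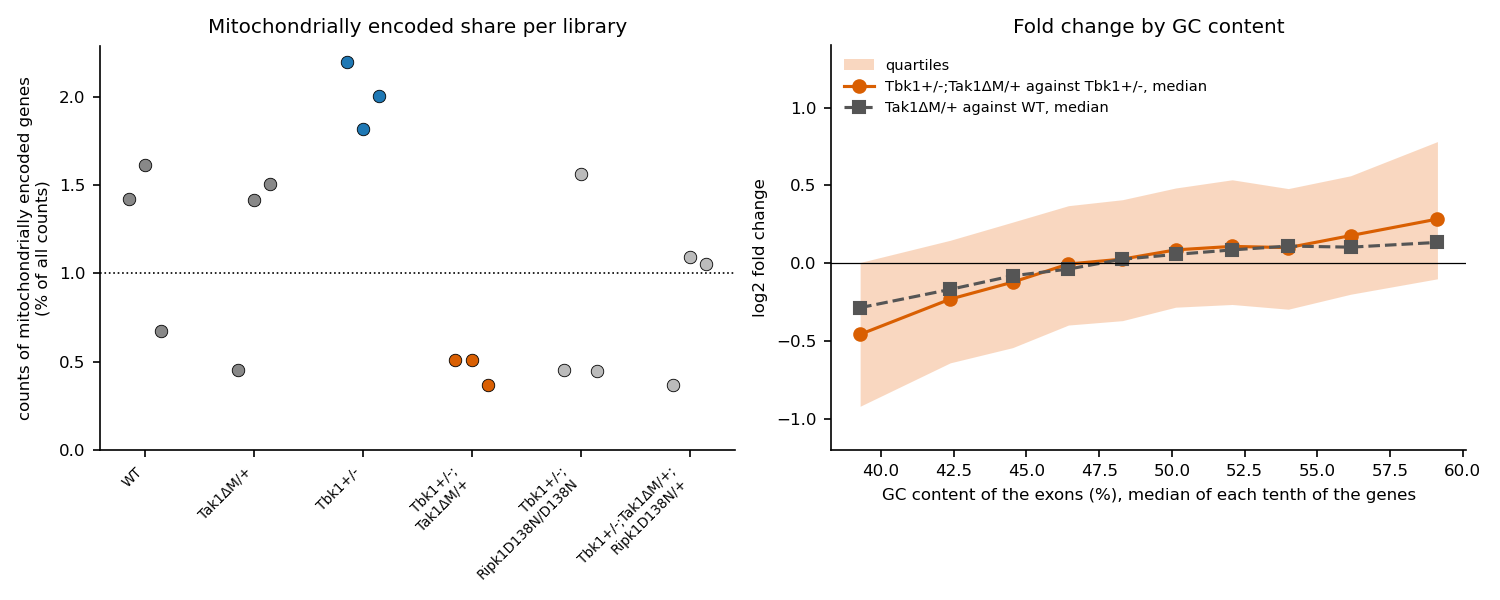
Left, the percentage of counts from mitochondrially encoded genes (y axis) in each of the 18 libraries (1 point each) by genotype; the 3 Tbk1+/-;Tak1ΔM/+ libraries lie at or below 0.512% and the 3 Tbk1+/- libraries at or above 1.82%, on either side of the dotted line at 1%. Right, median log2 fold change (y axis) of genes in 10 equal groups by GC content of their exons (x axis, percent), with the band from the first to the last quartile for Tbk1+/-;Tak1ΔM/+ against Tbk1+/- and a dashed line for Tak1ΔM/+ against WT.

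The genes the labels name were examined first. Tbk1 (chr10:121546455-121586787, mm10) read 50.5, 65.6 and 57.1 CPM in Tbk1+/- and 55.1, 56.4 and 66.0 in the double heterozygotes, against 106, 104 and 149 in WT, so both groups were at a like level below WT (log2 fold change between them 0.04, SE 0.25, edgeR quasi-likelihood adjusted p = 0.95). Map3k7 (chr4:31964097-32023467) read 13.2, 12.0 and 14.8 CPM in Tbk1+/- and 15.8, 11.4 and 6.57 in the double heterozygotes. The groups overlapped (log2 fold change -0.25, SE 0.32, adjusted p = 0.67), and as the labels do not place the deletion, the count over the whole gene does not check the Tak1 label. Ripk1 (chr13:34002363-34037147), the death-domain kinase held in check by both TBK1 and TAK1, rose from 21.5, 13.6 and 19.0 to 49.0, 55.8 and 71.0 CPM (log2 fold change 1.70, SE 0.44, adjusted p = 0.015). The other low-share libraries read 16.2 to 62.0, and without Tbk1+/-;Tak1ΔM/+ replicate 3 the adjusted p for Ripk1 was 0.0622. Lyz2 (chr10:117277331-117282321), which encodes lysozyme of macrophages and was the most abundant gene named here, fell from 26535, 39479 and 21913 to 8000, 8114 and 8923 CPM (log2 fold change -1.81, SE 0.20, adjusted p = 5.6e-05). All 3 double heterozygotes lay below the other 15 libraries of the series for Lyz2, the nearest being a Tak1ΔM/+ library at 13578.

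Of the 13447 genes, 1974 (14.7%) passed an adjusted p of 0.05 in edgeR's quasi-likelihood test and are referred to as called: 866 (6.44%) were higher and 1108 (8.24%) lower in Tbk1+/-;Tak1ΔM/+. The median log2 fold change over all genes was 0.0067. For 2313 genes (17.2%) every double heterozygote was above every Tbk1+/- library, and for 2206 (16.4%) every one was below. The 3 double heterozygotes exceeded all other 15 libraries for 341 genes (2.54%), which include 233 (26.9%) of those called higher, and lay below all of them for 410 genes (3.05%), which include 327 (29.5%) of those called lower. Single libraries moved the number called: without Tbk1+/-;Tak1ΔM/+ replicate 1 or 3 it was 1234 or 1071, and without Tbk1+/- replicate 1 it was 1160. Without Tbk1+/- replicate 2, the closest of its group to the double heterozygotes, it was 2213. With the mitochondrially encoded share as a covariate 140 genes passed, 70 in each direction (0.521% each) and 118 of them among the 1974. With a term for a share under 1%, 261 were higher (1.94%) and 363 lower (2.7%), and with a correction for GC content and length 605 were higher (4.5%) and 873 lower (6.5%).

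**Figure D2:**
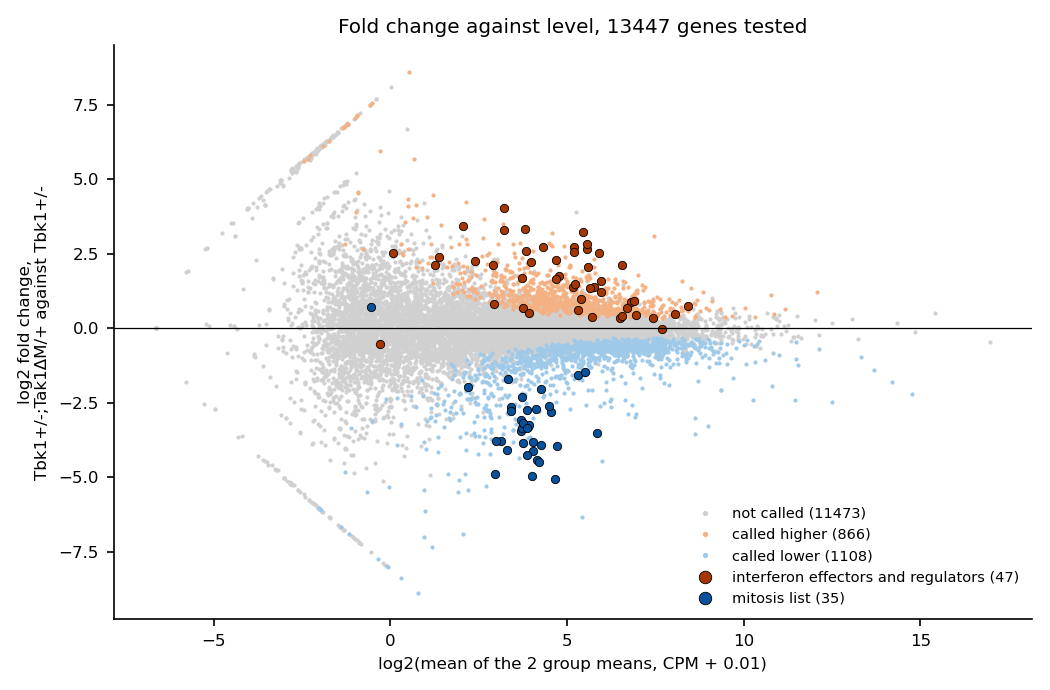
Log2 fold change of Tbk1+/-;Tak1ΔM/+ against Tbk1+/- (y axis) against the level of each gene (x axis, log2 of the mean of the group means in CPM, plus 0.01); each point is 1 of the 13447 genes tested. The 35 mitosis genes (blue) lie below 0 save 1, and 45 of the 47 interferon effector genes (brown) lie above it; the diagonal lines at low level are genes at 0 counts in all libraries of a group.

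Among the 26 gene lists examined, that of interferon-stimulated effectors held the most genes called higher. Of 47 effectors and regulators measured, 32 were higher and none lower, against 6.44% and 8.24% of all genes, with a median log2 fold change of 1.64 against 0.0067 over all genes tested. Isg15 (chr4:156199424-156200818), a ubiquitin-like modifier released and attached to proteins in the interferon response, read 1.88, 2.63 and 3.12 CPM in Tbk1+/- and 26.1, 25.4 and 25.8 in Tbk1+/-;Tak1ΔM/+ (log2 fold change 3.34, SE 0.26, adjusted p = 2.7e-06). The groups were far apart, and the other 12 libraries lay between them at 3.82 to 6.31. Ifit3, of the family that binds foreign RNA, went from 3.86, 19.4 and 2.32 to 80.7, 76.4 and 81.5 CPM (3.22, SE 0.56, adjusted p = 0.0013). Rsad2, or viperin, went from 8.34, 17.5 and 8.56 to 85.8, 83.5 and 78.1 (2.84, SE 0.40, adjusted p = 0.0005). In both, Tbk1+/- replicate 2 was the highest of its group and still far below the double heterozygotes.

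The same held for other effectors. Usp18, the protease that removes ISG15 and dampens IFNAR, rose from 3.23, 7.88 and 4.31 to 29.8, 37.9 and 35.8 CPM (2.75, SE 0.35, adjusted p = 0.00027). Cmpk2, a mitochondrial nucleotide kinase that neighbours Rsad2, rose from 8.73, 14.6 and 4.91 to 57.1, 69.4 and 63.4 (2.75, adjusted p = 0.00078), and Ifit1 from 7.43, 25.8 and 5.11 to 86.9, 85.8 and 72.0 (2.67, adjusted p = 0.0037). Mx1, a dynamin-like GTPase that blocks influenza virus, read 0.868, 3.997 and 0.265 against 17.8, 13.1 and 20.0 (3.30, adjusted p = 0.0043). Ifit3b had the largest change among the named genes called higher, from 1.16, 1.71 and 0.265 to 15.6, 21.8 and 15.7 (4.06, adjusted p = 0.00064). Ifit3 and Ifit3b are near-identical copies, so the split of reads between them is uncertain. Cxcl10, the interferon-inducible chemokine that draws T cells, rose from 1.35, 2.06 and 1.06 to 18.4, 14.99 and 17.1 CPM (3.49, SE 0.46, adjusted p = 0.0003).

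The effectors were also compared as a list across all libraries. On a log2(CPM + 1) scale and relative to the Tbk1+/- mean, the 47 effectors averaged 1.56, 1.57 and 1.54 in the 3 double heterozygotes and -0.18, 0.43 and -0.26 in Tbk1+/-. In the other low-share libraries the average ran from -0.04 to 0.44, and in the remaining 7 from 0.14 to 0.47. For 34 of the 47 genes (against 2.54% of all genes) the double heterozygotes exceeded all other 15 libraries. Among those 15 are the 3 libraries labelled Tbk1+/-;Tak1ΔM/+;Ripk1D138N/+, at 0.29, 0.14 and 0.22, in which Tbk1 itself read 107 to 123 CPM, near the WT level. As the other low-share libraries also differ in Tbk1 and Y-linked genes, setting them beside the double heterozygotes does not test the part of the share alone. The number of effectors called higher was 28 to 33 with single libraries left out and 16 with the mitochondrially encoded share as a covariate. Set against WT, a comparison that shares the same double heterozygotes, Isg15 was higher in Tbk1+/-;Tak1ΔM/+ by 2.31 (adjusted p = 6.1e-05), while Tbk1+/- differed from WT by -1.04 (adjusted p = 0.15).

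**Figure D3:**
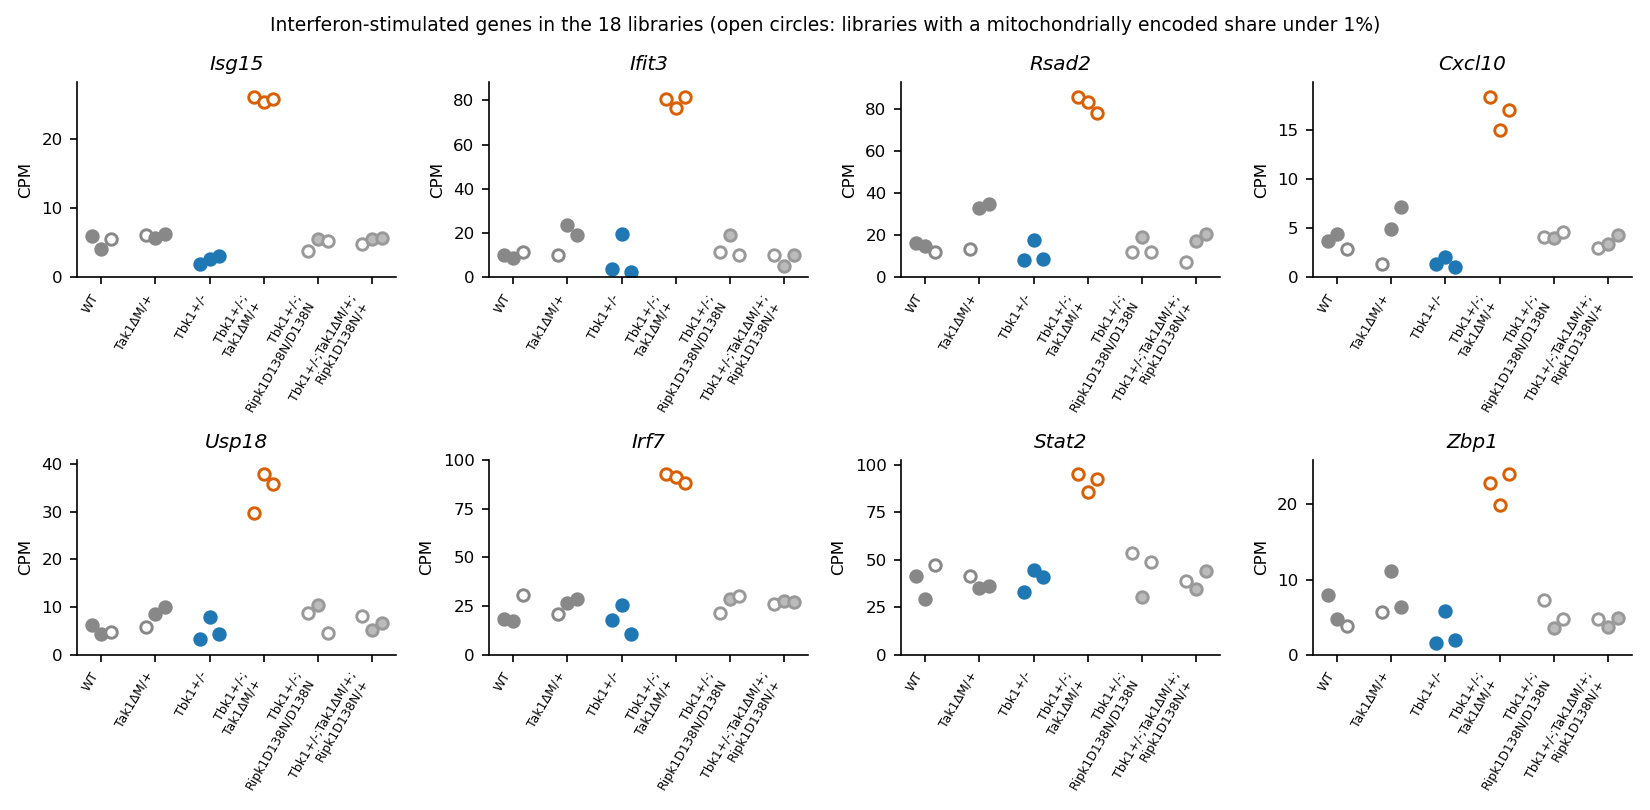
CPM (y axis, from 0) of 8 interferon-stimulated genes in the 18 libraries, 1 point per library, by genotype (x axis); Tbk1+/- in blue, Tbk1+/-;Tak1ΔM/+ in orange, other genotypes in grey, open circles for libraries with a mitochondrially encoded share under 1%. In each panel the 3 orange points lie above all others.

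The promoters of these genes were searched for the motif through which ISGF3 acts. RefSeq promoter windows (GRCm38.p6, 250 bases before to 50 after the start) were found for 37 of the 47 effectors, and 18 (48.6%) held the ISRE core (GAAA and GAAA with any 2 bases between them) on either strand, against 4.03% of the 9801 tested genes with a window. Of genes called higher 6.13% held it, or 4.25% without the interferon lists, and of genes called lower 4.80%. These shares are counted by gene, and over all 27025 genes with a window the share was 3.99%. Counted by window, it was 3.44% of 32851. The stretches of 80 bases shown are those of the 5 named effectors with the largest change that hold a match upstream of the start, 5′ to 3′ on the gene's strand with the ISRE match in capitals: Ifit3b (chr19:34607768-34607847, plus), Isg15 (chr4:156200840-156200919, minus), Ifit3 (chr19:34583372-34583451, plus), Rsad2 (chr12:26456528-26456607, minus) and Ifit1 (chr19:34640769-34640848, plus).
Ifit3b: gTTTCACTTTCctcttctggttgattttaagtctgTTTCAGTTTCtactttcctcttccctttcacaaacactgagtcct
Isg15: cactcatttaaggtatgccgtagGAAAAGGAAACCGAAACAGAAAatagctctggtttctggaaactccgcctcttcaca
Ifit3: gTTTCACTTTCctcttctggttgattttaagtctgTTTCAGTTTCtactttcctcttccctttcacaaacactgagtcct
Rsad2: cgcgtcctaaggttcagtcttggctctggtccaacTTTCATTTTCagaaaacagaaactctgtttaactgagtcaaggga
Ifit1: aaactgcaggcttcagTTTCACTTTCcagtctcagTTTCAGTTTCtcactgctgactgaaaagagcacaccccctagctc
The stretches of Ifit3b and Ifit3 have the same letters, and Isg15 holds 3 overlapping matches that begin at -78, -72 and -66 from its start site. A match is a description of these letters and does not show that a factor is bound. The NF-κB-type motif (GGGA, any 1 base, TTTCC) was in none of the 37 effector windows, against 0.531% of tested genes, and the AP-1 motif TGANTCA in 9 (24.3%) against 6.22%.

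Factors that relay the interferon signal were also higher: 8 of 13 transcription factors were higher (61.5%, against 6.44% of all genes) and none lower, with a median of 0.88. With the mitochondrially encoded share as a covariate 3 were called, Irf7 and Irf9 among them, and 6 with the term for a share under 1%. Irf7, the factor that amplifies interferon production, rose from 17.9, 25.4 and 10.8 to 92.6, 91.2 and 88.3 CPM (2.33, SE 0.26, adjusted p = 7.3e-05). Genes of ISGF3 subunits changed less. Stat2 went from 32.8, 44.8 and 40.9 to 94.9, 85.7 and 92.3 (1.20, adjusted p = 0.001) and Irf9 from 39.6, 44.5 and 45.6 to 63.8, 63.2 and 71.7 (0.62, adjusted p = 0.0026). For each of these 3 genes the double heterozygotes were above all other 15 libraries. The nuclear body genes Sp110 (1.32, adjusted p = 0.00088) and Sp100 (0.99, adjusted p = 0.0021) were also higher. Like Stat2, both lost their call with the share as a covariate. So did Irf1 (0.88, adjusted p = 0.035) and Irf5 (0.65, adjusted p = 0.015), 2 further factors of the IRF family. Irf1 was also lost without any 1 library other than Tbk1+/- replicate 2 (up to 0.155), and Irf5 without Tbk1+/-;Tak1ΔM/+ replicate 3 or Tbk1+/- replicate 1 or 3 (up to 0.0836).

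Of 15 nucleic acid sensors, 5 were higher (33.3%, against 6.44% of all genes) and 1 lower (6.67%, against 8.24%). The number higher was 3 without Tbk1+/- replicate 1, 10 without Tbk1+/- replicate 2 and 2 with the share as a covariate. Zbp1, the sensor of Z-form nucleic acids that can engage RIPK1 and RIPK3, rose from 1.495, 5.77 and 1.99 to 22.9, 19.95 and 23.99 CPM (2.85, SE 0.45, adjusted p = 0.00083). The RIG-I-like receptor genes Dhx58 (13.9, 34.7 and 21.2 to 70.5, 71.0 and 72.4; 1.62, adjusted p = 0.00099) and Ddx58 (17.02, 39.5 and 30.2 to 62.4, 55.8 and 61.7; 1.06, adjusted p = 0.0069) were higher. Ifi204, a sensor of DNA, was higher by 1.27 (adjusted p = 0.011, and 0.0636 without Tbk1+/- replicate 1). Tlr7, the endosomal receptor for single-stranded RNA, was the member called lower, from 293, 427 and 236 to 162, 147 and 148 (-1.07, adjusted p = 0.0021). Interferon transcripts themselves were near the floor. Ifnb1 had 0 counts in the 3 Tbk1+/- libraries and 8 in 1 double heterozygote, Ifna2, Ifna4, Ifna5 and Ifne had none in any of the 6, and none of these passed the filter. A count of 0 allows up to 3 counts per library, for counting error only. Il10rb, a receptor chain shared by IL-10 and type III interferons, was 1 of 5 members tested in the list of interferons and receptors and the 1 called, at 137, 168 and 109 against 217, 192 and 215 CPM (0.59, adjusted p = 0.0054).

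The kinases upstream were examined in 2 lists. Of 17 genes for the TAK1 complex and its downstream kinases, 2 were higher (11.8%, against 6.44% of all genes) and 1 lower (5.88%, against 8.24%), with a median of 0.19. Chuk, which encodes IKK-alpha, rose from 13.4, 14.3 and 11.1 to 56.7, 59.97 and 46.9 CPM (2.07, SE 0.35, adjusted p = 0.001). The other low-share libraries read 16.5 to 44.2 for Chuk and the remaining 7 read 12.0 to 33.5. Map3k8, or TPL2, was higher by 1.12 (adjusted p = 0.015) and Map2k6, a p38 kinase kinase, lower (-1.35, adjusted p = 0.036). The Map3k8 call was lost without Tbk1+/-;Tak1ΔM/+ replicate 1 or 2 or Tbk1+/- replicate 1 or 3 (adjusted p up to 0.0754), and that of Map2k6 without any 1 of the 6 (up to 0.134). In the list of TBK1, IKK-epsilon and adaptors, 1 of 10 was called in each direction, so that the share in either is that of 1 gene. Tbkbp1 was higher (4.87, 1.94 and 3.05 to 11.9, 12.4 and 10.7; 1.82, adjusted p = 0.0028) and Tank lower (-0.53, adjusted p = 0.028). Tank lost its call without Tbk1+/-;Tak1ΔM/+ replicate 2 or 3 or Tbk1+/- replicate 1 or 2 (up to 0.109). With the share as a covariate no member of either list was called, and with the term for a share under 1% 1 was, in the TAK1 list.

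Of 22 genes of the TNF receptor, RIPK1 and death complexes, 3 were higher and none lower (13.6% higher, against 6.44% of all genes): Ripk1, Tnf and Rnf31. All 3 lost their call with the mitochondrially encoded share as a covariate and with the term for a share under 1%. Without Tbk1+/-;Tak1ΔM/+ replicate 3, 2 were higher, and without Tbk1+/- replicate 2, 5. Tnf, the ligand, rose from 6.41, 17.8 and 3.91 to 35.6, 36.5 and 36.5 CPM (1.95, SE 0.41, adjusted p = 0.004), above all other 15 libraries. Rnf31, or HOIP, which builds linear ubiquitin chains on the TNF receptor complex, rose from 17.7, 26.6 and 20.4 to 42.2, 41.1 and 32.1 (0.83, adjusted p = 0.0037). Among 23 targets and feedback genes of NF-κB, 4 were higher (17.4%, against 6.44% of all genes) and 1 lower (4.35%, against 8.24%). None was called higher with the share as a covariate or with the term. The number higher was 1 without replicate 1 of either group, and 2 without Tbk1+/-;Tak1ΔM/+ replicate 3 or Tbk1+/- replicate 2 or 3. Gadd45b went from 4.15, 9.82 and 1.72 to 21.3, 29.9 and 21.3 (2.20, adjusted p = 0.0032). Nfkb2 (0.86, adjusted p = 0.016), Rela (0.63, adjusted p = 0.019) and Bcl3 (1.61, adjusted p = 0.049) lost their calls when single libraries were left out: Nfkb2 without Tbk1+/-;Tak1ΔM/+ replicate 1 or Tbk1+/- replicate 1 or 2 (up to 0.0687), Rela without replicate 1 or 3 of either group (up to 0.09) and Bcl3 without any 1 of the 6 (up to 0.201). Clec4e, a receptor for mycobacterial lipids and dying cells, fell from 252, 41.5 and 351 to 29.1, 28.9 and 24.3 (-2.97, SE 0.60, adjusted p = 0.0033), with Tbk1+/- replicate 2 close to the double heterozygotes.

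Inflammatory cytokines and chemokines did not move as a block: of 23 measured, 2 were higher (Cxcl10 and Tgfb1) and 2 lower (Il1rn and Cxcl14), 8.70% in each direction, near the share over all genes. Without Tbk1+/- replicate 2, 6 were higher. Tgfb1, a growth factor that maintains microglial identity, rose from 2.70, 6.74 and 3.25 to 11.8, 14.9 and 12.7 CPM (1.63, adjusted p = 0.005). Il1rn, the antagonist of the IL-1 receptor, fell from 153, 32.3 and 210 to 20.1, 21.2 and 21.4 (-2.66, SE 0.57, adjusted p = 0.0049), while WT read 31.6, 38.9 and 16.3. The Il1rn groups did not overlap, but Tbk1+/- replicate 2 was near the double heterozygotes and replicates 1 and 3 were above every other library. Cxcl14 was lower by a smaller step (-0.71, adjusted p = 0.022) and lost its call without any 1 library other than Tbk1+/- replicate 2 (up to 0.0982). Tgfb1, Il1rn and Cxcl14 lost their calls with the share as a covariate and with the term for a share under 1%, while Cxcl10 kept its call in both. Of 24 immediate early and AP-1 genes, 4 were higher (16.7%, against 6.44% of all genes) and none lower; 1 was higher without Tbk1+/-;Tak1ΔM/+ replicate 3, 2 without Tbk1+/- replicate 1 or 3, and none with the share as a covariate. Atf3 rose from 256, 386 and 196 to 525, 494 and 585 (0.94, adjusted p = 0.003). Jun (0.51, adjusted p = 0.015) lost its call without Tbk1+/-;Tak1ΔM/+ replicate 3 or Tbk1+/- replicate 2 (up to 0.0771), Myc (0.95, adjusted p = 0.013) without Tbk1+/-;Tak1ΔM/+ replicate 3 or Tbk1+/- replicate 1 or 3 (up to 0.079), and Zfp36 (0.85, adjusted p = 0.021) without any 1 library other than Tbk1+/- replicate 2 (up to 0.0751).

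The mitosis list held the most genes called lower. Of 35 measured, 34 were lower (97.1%, against 8.24% of all genes), with a median log2 fold change of -3.34; the uncalled member was Mybl2, near the floor at 0.522 ± 0.0614 and 0.832 ± 0.779 CPM (SD, n = 3 each). Mki67 (chr7:135689784-135716361), the proliferation marker Ki-67, read 70.9, 15.4 and 61.1 CPM in Tbk1+/- and 1.27, 2.14 and 1.19 in Tbk1+/-;Tak1ΔM/+ (-5.06, SE 0.68, adjusted p = 0.00036). Ube2c, which with the anaphase-promoting complex marks cyclins for destruction, fell from 29.9, 11.8 and 41.3 to 1.64, 0.902 and 1.59 (-4.27, SE 0.44, adjusted p = 3.6e-05). Ccnb1, or cyclin B1, fell from 23.5, 6.11 and 26.1 to 0.848, 1.58 and 0.996 (-4.08, adjusted p = 0.00028). In each of these, Tbk1+/- replicates 1 and 3 were the highest libraries of the series, replicate 2 was lower than both, and the double heterozygotes were below all other 15.

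Spindle and cytokinesis genes showed the same pattern. Kif11, the motor that separates spindle poles, went from 39.0, 14.0 and 40.0 to 1.01, 2.03 and 2.29 CPM (-4.14, adjusted p = 0.00045). Nusap1, a spindle protein, went from 50.8, 9.76 and 45.1 to 1.70, 0 and 2.54 (-4.50, adjusted p = 0.00067), and Shcbp1, of the midbody, from 44.7, 13.5 and 34.8 to 1.01, 1.13 and 0.896 (-4.95, adjusted p = 0.0005). Knl1, a kinetochore scaffold (-4.89, adjusted p = 0.0029), Ccnb2 (-4.43, adjusted p = 0.00092), Ccna2 (-3.95, adjusted p = 0.00052) and Birc5, or survivin (-3.92, adjusted p = 0.00073), fell as far. Outside the list, the mitotic kinase gene Mastl (18.3, 2.17 and 17.6 to 0.212, 0.676 and 0.199; -5.29, adjusted p = 0.0018) and the condensin gene Ncapg (43.7, 12.3 and 45.7 to 0.636, 2.93 and 1.29; -4.50, adjusted p = 0.00081) were lower. Averaged over the 35 genes on the log2(CPM + 1) scale and relative to the Tbk1+/- mean, the double heterozygotes were at -2.59, -2.83 and -2.49 and the Tbk1+/- libraries at 0.55, -1.12 and 0.58. The other low-share libraries ran from -1.79 to -0.88 and the remaining 7 from -1.11 to -0.35. For 22 of the 35 the double heterozygotes were below all other 15 libraries, against 3.05% of all genes. With single libraries left out, 32 to 34 were called, and 9 with the mitochondrially encoded share as a covariate. In bulk RNA, fewer dividing cells and less RNA per cell cannot be told apart.

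The promoters of these genes were searched for the CHR element TTTGAA, which binds the DREAM and MuvB complexes, and for the CCAAT box CCAAT, bound by NF-Y, each on both strands. Of 29 mitosis genes with a window, 22 (75.9%) held the first, 21 (72.4%) the second and 18 (62.1%) both, against 14.4%, 43.2% and 5.98% of tested genes. Of genes called lower, 11.8% held both, or 10.0% without the mitosis list, and of genes called higher 4.18%. Over all genes with a window the 3 shares were 20.2%, 41.1% and 7.97%. Counted by window in place of by gene, they were 17.9%, 37.4% and 6.95%. The 4 named mitosis genes with the largest change that hold both upstream of the start are shown as stretches of 120 bases with each match in capitals (TTTGAA or TTCAAA for the first, CCAAT or ATTGG for the second): Mki67 (chr7:135716446-135716565, minus), Ccnb2 (chr9:70421620-70421739, minus), Ube2c (chr2:164769809-164769928, plus) and Kif11 (chr19:37376262-37376381, plus).
Mki67: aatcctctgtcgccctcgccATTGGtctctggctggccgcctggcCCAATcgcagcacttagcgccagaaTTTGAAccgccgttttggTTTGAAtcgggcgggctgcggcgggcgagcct
Ccnb2: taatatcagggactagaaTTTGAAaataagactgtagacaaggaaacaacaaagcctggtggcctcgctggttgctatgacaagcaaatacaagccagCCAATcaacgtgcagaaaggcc
Ube2c: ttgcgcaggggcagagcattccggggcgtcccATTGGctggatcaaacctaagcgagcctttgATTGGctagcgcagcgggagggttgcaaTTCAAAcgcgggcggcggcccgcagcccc
Kif11: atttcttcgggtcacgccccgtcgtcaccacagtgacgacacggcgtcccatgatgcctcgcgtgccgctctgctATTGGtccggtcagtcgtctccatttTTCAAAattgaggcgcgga
The Mki67 stretch holds 4 matches and that of Ube2c 3. In Kif11 and Ube2c the last match lies close to the start site, with its first base at -19 and -29.

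Genes of DNA replication were in part lower: 9 of 37 were lower (24.3%, against 8.24% of all genes) and none higher, with a median of -0.62. Tk1, thymidine kinase, fell from 15.3, 10.5 and 21.02 to 2.70, 3.49 and 3.73 CPM (-2.24, SE 0.30, adjusted p = 0.00037). E2f2 fell from 4.87, 2.11 and 5.90 to 0.848, 0.338 and 0.249 (-3.12, adjusted p = 0.0067), and Rrm1, a subunit of ribonucleotide reductase, from 104.6, 76.5 and 123 to 38.0, 47.5 and 34.4 (-1.35, adjusted p = 0.0027). Rrm2, its partner, was lower (-2.01, adjusted p = 0.011) but not without replicate 3 of either group (up to 0.0607). With the mitochondrially encoded share as a covariate 1 of the 9 passed, and 4 to 11 with single libraries left out: 6, 5 and 4 without Tbk1+/-;Tak1ΔM/+ replicates 1, 2 and 3, and 5 without Tbk1+/- replicate 3. Among 29 p53 target and apoptosis genes, 4 were higher and 4 lower, 13.8% in each direction, against 6.44% and 8.24% of all genes. With the share as a covariate none was higher and 1 lower. Without Tbk1+/-;Tak1ΔM/+ replicate 1 or 3, 2 were called in each direction, without Tbk1+/- replicate 1 2 were lower, and without Tbk1+/- replicate 3 1 was higher. Trp53inp1, a p53 target with a role in autophagy, fell from 108, 65.4 and 80.5 to 24.1, 16.7 and 19.7 (-2.06, SE 0.23, adjusted p = 5.6e-05), below all other 15 libraries. Ccng1 fell from 223, 287 and 266 to 118, 158 and 110 (-1.01, adjusted p = 0.00073), and Plk2 rose from 260, 373 and 200 to 663, 649 and 630 (1.22, adjusted p = 0.0018).

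Genes of antigen presentation were among those higher: 10 of 23 (43.5%, against 6.44% of all genes), with 1 lower (4.35%, against 8.24%). The members called higher named below act in or beside the class I pathway. Nlrc5, the transactivator of class I genes, rose from 5.74, 4.57 and 4.71 to 14.8, 18.6 and 16.5 CPM (1.73, SE 0.27, adjusted p = 0.00073), although libraries of other genotypes reached 20.05. Tap1, the peptide transporter, rose from 21.5, 34.2 and 28.5 to 66.3, 60.4 and 56.8 (1.13, adjusted p = 0.00051), H2-T23 from 49.9, 120.1 and 52.99 to 159, 153 and 182 (1.15, adjusted p = 0.0057), and Cd274, or PD-L1, from 12.2, 17.99 and 17.1 to 33.3, 36.3 and 31.5 (1.09, adjusted p = 0.0062). H2 genes are near-identical copies in part, so their counts are uncertain. The immunoproteasome genes Psmb8 (0.71, adjusted p = 0.012) and Psmb9 (0.79, adjusted p = 0.011) lost their calls without Tbk1+/-;Tak1ΔM/+ replicate 3 or Tbk1+/- replicate 1 (up to 0.0783 and 0.0628). Cd86, a costimulatory ligand, was the member called lower, from 207, 75.6 and 180 to 42.0, 45.2 and 43.4 (-1.83, SE 0.26, adjusted p = 0.00052). With the mitochondrially encoded share as a covariate 4 of the 10 passed, and 6 without Tbk1+/-;Tak1ΔM/+ replicate 3 or Tbk1+/- replicate 1.

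Genes of microglial identity fell in part. Of 27 homeostatic genes, 7 were lower (25.9%, against 8.24% of all genes) and none higher, with a median of -0.17. Gpr34 (chrX:13632089-13640858), a receptor for lysophosphatidylserine, fell from 257, 170 and 134 to 31.7, 25.5 and 19.4 CPM (-2.87, SE 0.27, adjusted p = 1.6e-05), and Cd33, an inhibitory receptor for sialic acids, from 97.4, 44.5 and 90.4 to 21.7, 18.8 and 14.7 (-2.07, adjusted p = 0.0018). Both were below all other 15 libraries. Lpcat2, which makes platelet-activating factor, fell from 122, 66.3 and 155 to 54.7, 51.1 and 53.6 (-1.10, adjusted p = 0.0042). Fcrls fell from 810, 167 and 948 to 180, 177 and 202 (-1.78, adjusted p = 0.0037), but the groups overlapped, since Tbk1+/- replicate 2 was the lowest of the 6. P2ry12, the ADP receptor used as a marker of resting microglia, read 13.4, 15.99 and 13.9 against 2.97, 8.79 and 5.13 (-1.38, adjusted p = 0.013) and lost its call without Tbk1+/-;Tak1ΔM/+ replicate 1 or 3 (up to 0.0655). With a term for a share under 1% 5 were called lower, with the share itself as a covariate 1, and without Tbk1+/-;Tak1ΔM/+ replicate 1 4. Csf1r, Tmem119 and Trem2 were among the 20 homeostatic genes that were not called.

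Of 25 genes of disease-associated microglia, 2 were higher (8%, against 6.44% of all genes) and 4 lower (16%, against 8.24%). Without any 1 double heterozygote 2 were lower, and with the share as a covariate 1 was called in each direction. Cst7, a cystatin, fell from 24.3, 20.3 and 33.6 to 5.46, 9.36 and 6.92 CPM (-1.86, SE 0.30, adjusted p = 0.00092), and Ch25h, cholesterol 25-hydroxylase and itself interferon-inducible, from 17.6, 18.3 and 23.6 to 4.83, 8.23 and 3.19 (-1.91, adjusted p = 0.00099). Lpl, lipoprotein lipase, rose from 1519, 4742 and 1503 to 6374, 5953 and 5947 (1.24, adjusted p = 0.012). Lpl in Tbk1+/- replicate 2 was near the double heterozygotes, and the call was lost without Tbk1+/- replicate 1 or 3 (up to 0.0622). Among 16 genes of alternative activation and arginine metabolism, 7 were lower (43.8%, against 8.24% of all genes) and 1 higher (6.25%, against 6.44%). The median of the list was -0.14, with 8 members positive and 8 negative. Arg1 (chr10:24915221-24927484), arginase, fell from 187, 21.7 and 154 to 5.57, 4.51 and 6.27 (-4.45, SE 0.62, adjusted p = 0.00045), against 59.6, 81.4 and 56.0 in WT. Arg2, the mitochondrial form, fell from 62.4, 13.6 and 48.8 to 6.68, 12.6 and 9.76 (-2.12, adjusted p = 0.0042), and Tgm2, a transglutaminase, from 110, 17.2 and 254 to 24.3, 18.8 and 29.9 (-2.37, adjusted p = 0.0071, and 0.0613 without Tbk1+/- replicate 3), with overlap through Tbk1+/- replicate 2. Pparg, the lipid-sensing nuclear receptor, rose from 17.5, 44.1 and 9.95 to 78.4, 76.0 and 76.2 (1.69, SE 0.39, adjusted p = 0.0072), above all other 15 libraries. Without Tbk1+/- replicate 3, 4 genes of this list were called lower. With the mitochondrially encoded share as a covariate Arg1 kept its call, and every other called member of the list, Pparg among them, lost its call.

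Of 27 complement, Fc and phagocytic receptor genes, 10 were lower (37.0%, against 8.24% of all genes) and 1 higher (3.70%, against 6.44%). The median was -0.46. The activating receptor for monomeric IgG, Fcgr1, rose from 56.7, 136 and 56.0 to 202, 197 and 212 CPM (1.29, adjusted p = 0.004). Msr1, a scavenger receptor, fell from 701, 826 and 659 to 410, 420 and 431 (-0.79, SE 0.13, adjusted p = 0.00098), and Lyz1, a near-identical neighbour of Lyz2 whose reads may be shared with it, from 65.0, 55.4 and 26.1 to 14.3, 12.96 and 14.6 (-1.81, adjusted p = 0.0059). The Fc receptors thus did not move together: Fcgr1 was higher, while Fcgr2b, the inhibitory one, read 485, 834 and 359 against 257, 239 and 256 (-1.16, adjusted p = 0.022, lost without any 1 of Tbk1+/-;Tak1ΔM/+ replicates 1 to 3 or Tbk1+/- replicate 2, up to 0.108). Of 33 lysosome and autophagy genes, 6 were lower (18.2%, against 8.24% of all genes) and none higher. Lamp2, a lysosomal membrane protein, fell from 2116, 2393 and 1774 to 1109, 1036 and 879 (-1.06, SE 0.16, adjusted p = 0.00064), Glb1, beta-galactosidase, from 174, 140 and 185 to 91.5, 85.7 and 100.7 (-0.84, adjusted p = 0.0019), and Atg5, of the autophagosome conjugation system, from 174, 144 and 164 to 88.6, 96.0 and 97.5 (-0.78, adjusted p = 0.00095). Without Tbk1+/-;Tak1ΔM/+ replicate 2, 6 receptor genes were called lower. With the share as a covariate 1 of the 10 receptor genes and none of the 6 lysosome genes was called lower. Without Tbk1+/-;Tak1ΔM/+ replicate 1, 3 lysosome genes were called lower.

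Genes of energy metabolism were among those called lower. Of 27 glycolysis and hypoxia genes 12 were lower (44.4%, against 8.24% of all genes) and none higher, with a median of -0.67. Slc16a3, the lactate exporter MCT4, fell from 132, 37.5 and 166 to 26.7, 18.8 and 33.2 CPM (-2.08, SE 0.46, adjusted p = 0.0062), and Bnip3, a mitophagy receptor induced by hypoxia, from 25.5, 12.4 and 26.2 to 9.49, 9.58 and 9.81 (-1.15, adjusted p = 0.006). The count of this list rested on single libraries: 2 to 5 members were called without any 1 double heterozygote, 4 without Tbk1+/- replicate 1 or 3 and 18 without Tbk1+/- replicate 2. The list's mean in the other low-share libraries (-0.61 to -0.05 relative to Tbk1+/-) reached that of the double heterozygotes (-0.61, -0.78 and -0.55), whereas the remaining 7 ran from -0.18 to 0.05, and no member was called lower with the share as a covariate. All 13 mitochondrially encoded genes had a negative log2 fold change, with a median of -2.11. Of them 10 were called lower (76.9%, against 8.24% of all genes), and 4 without Tbk1+/-;Tak1ΔM/+ replicate 3. Among the called genes, mt-Nd5 went from 2126, 2098 and 2033 to 439, 430 and 297 (-2.42, SE 0.57, adjusted p = 0.0082), with the other low-share libraries at 348 to 624 and the remaining 7 at 1196 to 1846. mt-Co1, the most abundant, went from 10836, 9387 and 9346 to 1950, 1901 and 1432 (-2.48, adjusted p = 0.011, and 0.0581 without Tbk1+/-;Tak1ΔM/+ replicate 3). Of 24 genes for cholesterol biosynthesis and efflux, 1 was called lower (4.17%, against 8.24% of all genes) and none higher. It was Hmgcs1 (-1.02, adjusted p = 0.014), and its call was lost without Tbk1+/-;Tak1ΔM/+ replicate 3 or Tbk1+/- replicate 1 (up to 0.115).

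Of 30 cytosolic ribosomal protein genes, 19 were lower (63.3%, against 8.24% of all genes) and none higher, by small steps (median -0.41). Rpl23 went from 133, 133 and 117 to 81.5, 80.9 and 83.1 CPM (-0.64, SE 0.10, adjusted p = 0.00064), Rps7 from 123, 114 and 137 to 83.1, 71.7 and 88.6 (-0.62, adjusted p = 0.0015) and Rps20 from 272, 227 and 292 to 159, 126 and 178 (-0.77, adjusted p = 0.00096). All 3 were below all other 15 libraries, as were 16 of the 30, against 3.05% of all genes. The list's mean was -0.41, -0.46 and -0.31 in the double heterozygotes and -0.21 to 0.18 in the other low-share libraries. Ribosomal protein genes have many processed copies in the genome, so part of their reads may be lost or shared. With single libraries left out 11 to 18 were called (11 without Tbk1+/-;Tak1ΔM/+ replicate 1, 12 without Tbk1+/- replicate 3), and 2 with the share as a covariate.

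In the list for the integrated stress response and the ER, 28 genes long, 5 were higher (17.9%) and 4 lower (14.3%), against 6.44% and 8.24% of all genes. None was called with the share as a covariate. The number higher was 1 without Tbk1+/-;Tak1ΔM/+ replicate 3, and 3 without Tbk1+/-;Tak1ΔM/+ replicate 2 or any 1 Tbk1+/- library. Of the integrated stress response, Ddit3, or CHOP, rose from 13.3, 21.4 and 13.2 to 38.9, 40.9 and 41.7 CPM (1.35, SE 0.28, adjusted p = 0.0038), above all other 15 libraries. Trib3, a pseudokinase induced by CHOP and ATF4, went from 4.15, 4.40 and 6.499 to 19.8, 19.3 and 21.1 (2.00, adjusted p = 0.019), but 1 Tak1ΔM/+ library of low share read 21.6, and the call was lost without Tbk1+/-;Tak1ΔM/+ replicate 3 or Tbk1+/- replicate 1 or 2 (up to 0.0835). Of the ER chaperones, Dnajb9 fell from 126, 113 and 107 to 47.2, 48.9 and 27.2 (-1.49, adjusted p = 0.00051), Hsp90b1 from 525, 407 and 444 to 230, 219 and 234 (-1.01, adjusted p = 0.001) and Canx, calnexin, from 635, 572 and 684 to 405, 429 and 368 (-0.65, adjusted p = 0.0014). Of 19 antioxidant and iron genes, 3 were higher (15.8%, against 6.44% of all genes) and 6 lower (31.6%, against 8.24%). With the share as a covariate 1 was higher and none lower. Without any 1 library other than Tbk1+/- replicate 2, 1 to 3 were lower, and without Tbk1+/- replicate 2 1 was higher. Fth1, the heavy chain of ferritin, fell from 21226, 11974 and 24228 to 7088, 6982 and 7738 (-1.40, SE 0.31, adjusted p = 0.0061); WT replicate 3, of low share, read 8142. Steap3, a ferrireductase, rose from 19.4, 29.7 and 21.5 to 43.6, 39.3 and 40.5 (0.81, adjusted p = 0.0035), which is the level of the other genotypes (34.9 to 49.0).

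**Figure D4:**
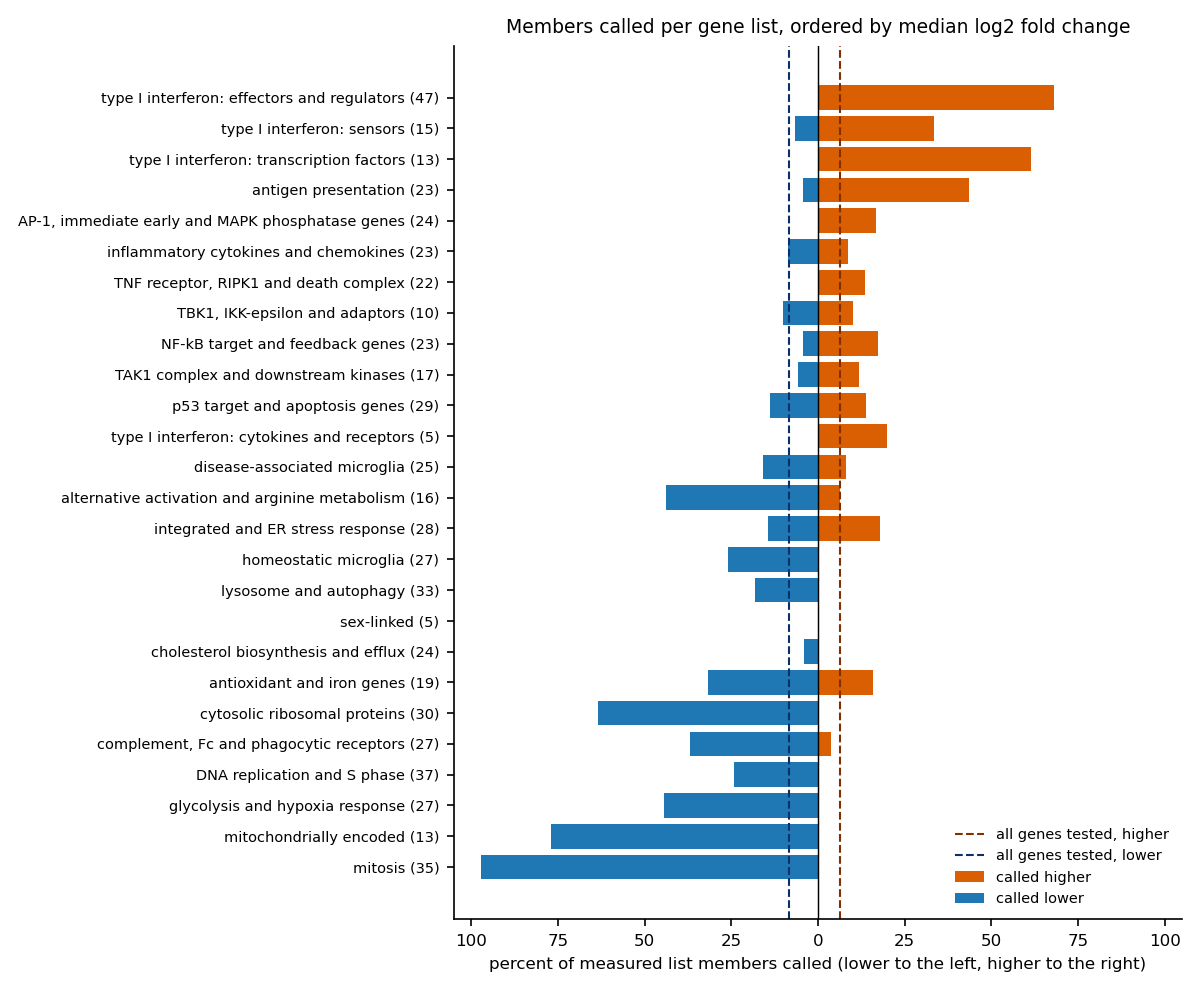
Percentage of the measured members of each of 26 gene lists (number in parentheses) called lower (left, blue) and higher (right, orange) in Tbk1+/-;Tak1ΔM/+ against Tbk1+/-, ordered by the list's median log2 fold change; dashed lines give the same over all genes tested, 8.24% lower and 6.44% higher. The mitosis list reaches 97.1% lower and the interferon effectors 68.1% higher; no member of the sex-linked list was called.

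Genes with large changes that lie outside these lists differed in how they related to the other genotypes. Rgl1, an exchange factor for Ral, rose from 4.003, 6.28 and 3.65 to 43.1, 37.0 and 48.3 CPM (3.20, SE 0.49, adjusted p = 0.00073), above all other 15 libraries (3.95 to 22.6 outside the contrast). Neat1, the long non-coding RNA of paraspeckles, read 27.4, 44.7 and 38.7 against 310, 302 and 335 (3.10, adjusted p = 0.034). In the other low-share libraries Neat1 read 151 to 212 and in the remaining 7 it read 20.997 to 46.6. With the share as a covariate its log2 fold change was -0.30, and it lost its call without any 1 of the 6 libraries (up to 0.125). Trir rose from 7.67, 6.28 and 3.71 to 32.2, 44.0 and 47.4 (2.80, adjusted p = 0.0016), Tlnrd1 from 4.82, 6.91 and 4.51 to 30.3, 47.1 and 41.6 (2.87, adjusted p = 0.0016) and Ring1, of Polycomb complexes, from 3.13, 1.085 and 1.86 to 17.4, 11.6 and 14.7 (2.84, adjusted p = 0.0019). In these 3 genes some libraries of other genotypes overlapped with the double heterozygotes, the highest at 37.2, 38.5 and 14.1 in low-share libraries. Wrnip1 (3.68, adjusted p = 0.0064), Tmem150a (3.03, adjusted p = 0.0017) and Ccdc88b (2.82, adjusted p = 0.013, and 0.0677 without Tbk1+/- replicate 1) complete the 15 largest rises. With the share as a covariate Rgl1, Trir, Tlnrd1, Ring1, Wrnip1, Tmem150a and Ccdc88b all lost their calls. Wrnip1 and Ccdc88b also lost theirs with the term for a share under 1%. Among the 15 largest falls, those outside mitosis were Arg1, above, and Mmp3, a matrix protease, from 6.90, 5.08 and 28.1 to 0, 0.902 and 1.24 (-4.24, SE 1.29, adjusted p = 0.034). The call of Mmp3 was lost without any double heterozygote or Tbk1+/- replicate 3 (up to 0.148), and the motor gene Kif18a (-4.22, adjusted p = 0.016) lost its call without Tbk1+/-;Tak1ΔM/+ replicate 1 or 3 or Tbk1+/- replicate 3 (up to 0.0665). Both also lost their calls with the share as a covariate and with the term for a share under 1%.

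Whether the Tak1 allele acted differently on the Tbk1+/- and WT backgrounds was tested directly, as the difference between this contrast and Tak1ΔM/+ against WT. The second comparison differs in Y-linked genes as well as in the allele: Y-linked genes summed to 107, 50.2 and 0 CPM in the WT libraries and to 3.02, 0 and 0 in Tak1ΔM/+, so the allele and the sex of the cells cannot be fully told apart there. With the Y-linked level as a covariate, 760 genes differed between backgrounds in place of 235. On the WT background 2 genes (0.0149%) were called, Sgce higher and Lox lower (0.00744% each). In turn 235 (1.75%) differed between the backgrounds, 71 (0.528%) with a more positive and 164 (1.22%) with a more negative change on Tbk1+/-. The difference was 3.13 for Isg15 (adjusted p = 0.00064), 3.22 for Cxcl10 (adjusted p = 0.016) and 2.13 for Irf7 (adjusted p = 0.011). Tak1ΔM/+ against WT gave 0.21, 0.27 and 0.19 for the same genes, none of them called. In all, 10 of the 47 interferon effectors differed, all in the positive direction. For mitosis, 15 of 35 differed, all negative: the difference was -5.34 for Mki67 (adjusted p = 0.0091), -3.81 for Ube2c (adjusted p = 0.0066) and -3.49 for Ccnb1 (adjusted p = 0.018), where Tak1ΔM/+ against WT gave 0.28, -0.46 and -0.59. Of the 30 ribosomal protein genes 16 differed, all negative, with medians of -0.41 here and 0.28 on WT. The largest positive differences included Ptprz1 (5.84, adjusted p = 0.026) and Dpysl3 (3.52, adjusted p = 0.038), neither called within this contrast: Ptprz1 read 4.53, 3.48 and 0 in Tbk1+/-, 9.49, 14.0 and 17.2 in the double heterozygotes, 6.14, 13.6 and 2.78 in WT, and 0.820, 0.938 and 0.137 in Tak1ΔM/+. Of the oligodendrocyte precursor markers, Pdgfra, Olig1 and Olig2 were higher within the contrast and Cspg4 was lower (log2 fold change -1.94), none of them called. Their values are given with the cell type markers, and their part in the Ptprz1 difference was not tested. Fscn1, an actin bundler, differed by 3.19 (adjusted p = 0.046).

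The number of differing genes was not stable. Leaving out any 1 of the 12 libraries moved it by over 1.5 times: it was 712 without Tbk1+/- replicate 2, 413 without Tak1ΔM/+ replicate 1, and from 46 (without Tak1ΔM/+ replicate 2) to 132 (without WT replicate 1) without each of the others. With the share as a covariate it was 19. Cxcl10 passed in all 23 of its alternatives and Mki67 in 22 of 23. They are among the 10 genes named for the largest differences (5 in each direction), most of which were less stable. Of the 10, 8 lost their call without Tak1ΔM/+ replicate 2 and 8 without replicate 3. Without WT replicates 1, 2 and 3 it was lost by 5, 7 and 7, and none lost it without Tak1ΔM/+ replicate 1. Tak1ΔM/+ against WT shares no library with this contrast. Across all 13447 genes the log2 fold changes of both had the same sign for 57.5% (Pearson r 0.03, Spearman rho 0.18), and across the 1974 called here for 72.9% (rho 0.53). This is a description over genes, which are not independent, and the low-share libraries number 3 and 0 in the groups of this contrast and 1 and 1 in the other.

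The labelled cell type was checked against its markers. The 13 markers of microglia and macrophages summed to 9369 to 9965 CPM in Tbk1+/- and 8057 to 8888 in the double heterozygotes. Of these, 5 were lower (38.5%, against 8.24% of all genes) and 1 (Spi1) higher (7.69%, against 6.44%). Markers of astrocytes summed to 28.98 to 39.1 against 21.9 to 30.1 CPM and of neurons to 0.8 to 5.2 against 6.4 to 8.5. Those of fibroblasts, mural and endothelial cells summed to 10.96 to 34.6 against 7.0 to 12.7, and those of other blood cells to at most 3.8. The oligodendrocyte lineage summed to 119 to 145 against 168 to 171, led by Cnp and Mbp. Of its 9 markers tested, 1 was called higher (11.1%, against 6.44% of all genes), and 8 of the 9 had a positive log2 fold change. On the log2(CPM + 1) scale and relative to the Tbk1+/- mean, its markers averaged 0.72 to 0.81 in the double heterozygotes, -0.28 to 0.18 in Tbk1+/- and -0.24 to 0.61 in the other 12 libraries. Of the precursor markers, Pdgfra read 1.06, 3.03 and 0 CPM in Tbk1+/- against 4.93, 9.81 and 7.32, Olig1 0.965, 5.65 and 2.65 against 15.7, 8.57 and 11.3, and Olig2 0, 1.26 and 2.92 against 4.45, 4.28 and 6.02. The groups did not overlap for these 3 genes, and none was called (adjusted p = 0.25, 0.058 and 0.31). Markers of border macrophages and monocytes summed to 1267 to 1941 against 1406 to 1437, led by Ms4a7. Of these, Lyve1 read 98.2, 0.571 and 156 against 0.106, 2.37 and 1.10 CPM (adjusted p = 0.005), so the high Lyve1 level was that of Tbk1+/- replicates 1 and 3, and S100a4 fell from 20.7, 19.1 and 25.3 to 3.29, 2.71 and 4.38 (-2.62, adjusted p = 0.002). The part of such cells in the changes above was not tested.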

How the data were processed

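RNA of each library (1 ng) was made into cDNA by Smart-seq2, which keeps no strand, and sequenced as 50-base read pairs, per the labels' protocols. The authors deposited 1 table of raw counts per gene for 18 libraries. Reads were aligned with STAR to mm10 and counted with featureCounts, per the submitters' processing notes; the labels' protocols name RSEM instead, and versions and annotation are not given in the sources used here. Without strand, reads of overlapping or antisense genes cannot be told apart. Of 50686 gene IDs, 50462 matched GENCODE M21; the 224 others held at most 0.00437% of a library's counts.

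The deposited counts were tested with edgeR 4.0.16 in R 4.3.3 (filterByExpr, TMM factors, glmQLFit over all 18 libraries with a term per genotype, contrasts by glmQLFTest, Benjamini-Hochberg adjustment over the genes tested; called at an adjusted p under 0.05). CPM values are TMM-scaled. The pipeline was tested on simulated counts with known changes. Lists were described by counts and medians, with no set test. DESeq2 1.42.0, limma 3.58.1 and other settings were alternatives.

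The members, lists, motifs and tests were chosen with earlier results of these data known. Named were Tbk1, Map3k7, Ripk1 and Lyz2; the 15 largest changes called in each direction among genes whose libraries did not overlap and whose level averaged 5 CPM or more; up to 8 members per list; and the 5 largest differences between backgrounds in each direction. Predicted genes with clone names would have been skipped, and there were none. Of the 201 genes the rule gave, those not described are counted within their lists; uncalled members were named only where a count turned on them. A few named genes are not reported here. Replicate numbers did not pair the samples.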

Additional observations from a re-analysis of the deposited data

Results flagged for a closer look

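Each result here was set apart because the effect of the Tak1 allele differed between the Tbk1+/- and WT backgrounds by a test of that difference (edgeR's quasi-likelihood test, adjusted p under 0.05). Values are log2 fold changes on Tbk1+/- minus those on WT, over 3 libraries in each of 4 groups, and the number of such genes moved with every library left out. Y-linked genes were near 0 in the 3 Tak1ΔM/+ libraries and in 1 WT library, and high in the others that enter the difference.

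Among interferon-related genes the difference was 3.37 for Ifit3b, 3.22 for Cxcl10, 3.13 for Isg15, 2.13 for Irf7, 2.08 for Usp18 and 1.26 for Stat2. Other genes with a more positive change on Tbk1+/- were Ptprz1 (5.84), Dpysl3 (3.52), Fscn1 (3.19), Rgl1 (2.89) and Steap3 (1.03).

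Cell cycle genes had a more negative change on Tbk1+/-: Mki67 (-5.34), Ncapg (-4.24), Ccnb2 (-3.97), Shcbp1 (-3.84), Ube2c (-3.81), Kif11 (-3.69), Birc5 (-3.51), Ccnb1 (-3.49), Ccna2 (-3.15) and Tk1 (-2.38). In these genes the Tbk1+/- replicates 1 and 3 that enter the difference had the highest levels of the series. Among genes of microglial state the values were -3.55 for Arg1, -2.35 for Gpr34 and -1.52 for Cd86, and among others -1.63 for Trp53inp1, -1.11 for Glb1 and -5.21 for mt-Nd3. Ribosomal protein genes differed by smaller steps: Rpl13a (-1.07), Rps20 (-1.07), Rps7 (-0.97), Rpl32 (-0.96), Rpl23 (-0.92) and Rps4x (-0.78).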

How the results depend on the processing

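Of the 1974 genes called, the number was 1071 to 2213 with single libraries left out, 919 with an absolute log2 fold change of at least 1, 140 with the mitochondrially encoded share as a covariate and 624 with a term for a share under 1% (539 of them among the 1974). DESeq2 called 2518, limma-voom 2100, and no filter on low counts 2366. The term for a share under 1% and the correction for GC content and length (1478 called) were chosen after seeing the data. The number of genes that differed between backgrounds, 235, was 46 to 712 with single libraries left out, 679 in DESeq2, 927 without a filter, 128 in a fit on 12 libraries, 760 with Y-linked CPM as a covariate, 19 with the share and 46 with the term. Of 224 pathway-list members called, 47 passed with the share and 117 with the term; of 32 interferon effectors 16 and of 34 mitosis genes 9 passed with the share. The mitochondrially encoded share differed by -1.81 points without the ribosomal RNA gene of largest share. Directions that turned belong to Tbk1, which was not called (-0.81 with the share, -0.54 with the term, -0.0653 to 0.12 over single libraries). Others that turned were Map3k7 (-0.59 to 0.0333 over single libraries) and Tank with the GC correction (0.0052). With the share, Neat1 (-0.30), Ldha (0.0512) and Prdx1 (0.089) turned, and the cause of these turns was not tested. Also with the share, mt-Co1 (0.0129), mt-Cytb (0.0318) and mt-Nd4 (0.33) turned. These mitochondrially encoded genes are counted in the share, so the covariate takes up their own change and is no test of them.

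With the replicate number as a block 1949 genes were called, 1833 of them among the 1974, and 149 differed between backgrounds. Deviations of same-numbered libraries correlated at -0.0048, 0 and 0.0232, so the numbers were not taken as a pairing. Depth limits the interferon and other transcripts at 0 counts, where up to 3 counts per library are allowed.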

Other observations

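The families here were looked at after the values were seen, and carry no test of the family. Of 45 tested genes with nucleolar names (Nop, Utp, Nol, Rrp, Wdr and the like), 16 were called higher and none lower, a share of 35.6% against 6.44% of all genes, with a median log2 fold change of 0.48. Of all 83 genes named Rpl or Rps, 40 were called lower and none higher (48.2% against 8.24%). Nuclear genes of respiratory complexes named Cox, Uqcr or Atp5 had 10 of 39 called lower (25.6%, against 8.24% of all genes) and none higher. The Ndufa, Ndufb, Ndufc, Ndufs and Ndufv genes had 5 of 37 called lower (13.5%, against the same 8.24%) and none higher.

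Of the genes for the synthesis of leukotrienes, lipid mediators made by myeloid cells, 3 that were chosen after their values were seen were lower. How the other genes of this synthesis moved is not given, nor are results with single libraries left out or with the share as a covariate. Alox5, the lipoxygenase, read 13.2 ± 7.30 CPM in Tbk1+/- and 1.20 ± 0.934 in Tbk1+/-;Tak1ΔM/+ (SD, n = 3 each; log2 fold change -3.39, edgeR quasi-likelihood adjusted p = 0.002). Its activating protein Alox5ap read 126 ± 64.4 against 23.3 ± 5.09 (-2.43, edgeR adjusted p = 0.00045), and Ltc4s, leukotriene C4 synthase, 17.6 ± 12.3 against 2.34 ± 0.691 (-2.89, edgeR adjusted p = 0.0024).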
